A study of Mus musculus with 6 samples.

Results

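The genes described here encode integrins, the kinases of the FAK and Src families that act at integrin contacts, and the scaffolds and adaptors of focal adhesions. The list held 40 genes chosen by name for these roles, with earlier results of these data known. Its counts and shares beside those of all genes therefore describe the list and are no test of it. A gene counted as measured where a probe set of the arrays was paired with it alone. By this rule 34 of the 40 were measured, each by 1 probe set, of 16797 genes in all. Itgb6, Ptk2 (the focal adhesion kinase FAK), Yes1, Ilk, Lyn and Tns1 had no such probe set and were not analysed here. The RNA came from NIH3T3 cells, an immortalized line of mouse fibroblasts used as Normal cells. In the NF group (3 arrays) the cells were treated with 10 μM forskolin (FSK), which stimulates adenylate cyclase and so drives the cAMP-dependent kinase PKA, at 24 h and again at 48 h of growth in 1 mM glucose. In the N group (3 arrays) the cells were grown in the same way with no FSK. Both groups were plated in 25 mM glucose, moved to 1 mM glucose after 16 h and harvested after a further 72 h. Both come from 1 cell line, and the labels call the arrays of a group biological replicates. The study's workflow gives DMSO as the vehicle of cells without FSK.

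Integrins are receptors made of one α and one β chain, which bind collagen, laminin, fibronectin or vitronectin outside the cell. Inside the cell their β tails are bound by talin, kindlins and tensins, and the contact matures into a focal adhesion, a plaque of kinases and scaffolds that is tied to actin fibres. FAK and Src family kinases are activated there and phosphorylate scaffolds such as paxillin and p130Cas, and in attached fibroblasts this signalling supports spreading, migration and survival.

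Values are log2 expression values as deposited, and a change is the mean of NF minus the mean of N on that scale, with its standard error (SE) from limma. A gene was called where its limma p-value was under 0.05 after Benjamini-Hochberg adjustment across the probe sets with 1 gene. A probe set was counted as dim where its mean over the 6 arrays lay under 3.70, the median of that mean over all probe sets tested, and 7 members were dim. The 6 arrays had medians between 3.84 and 3.93. N replicate 1 stood apart, with a narrower spread of values (SD 2.42 against 2.58 to 2.62 on the other arrays), and over 5189 probe sets with a mean of 5 to 8 it lay a median of 0.49 below the other N arrays. It was the lowest of the N arrays in 24 of the 27 members above the dim bound (88.9%), against 73.2% of all such genes. Changes that moved by more than 1.5 times or turned sign without this array are given both ways. Of 10 fibroblast markers measured, 9 were above the dim bound, with Vim and Fn1 between 12.12 and 12.65 on every array, and Fap was dim. Their mean ran from 8.95 to 9.20 over the NF arrays and from 8.42 to 8.95 over the N arrays, and Col3a1, a fibrillar collagen gene, was higher in NF by 1.33 (limma adjusted p = 0.0157). All 8 endothelial markers, 7 of 8 epithelial markers and 7 of 8 skeletal muscle markers were dim, as were 6 of 7 leukocyte markers, among them Ptprc, the pan-leukocyte antigen CD45. The leukocyte marker above the bound, Cd14, was higher in NF by 1.05 (limma adjusted p = 0.0439), while the mean of the 7 ran from 3.31 to 3.46 over the NF arrays and from 3.19 to 3.28 over the N arrays. The part of these markers in the results on the adhesion genes was not tested.

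Tns3 and Itgb5 were lower in NF than in N, and no member was called higher. The 2 called genes stand for 5.88% of the 34 members, while 2.55% of all genes were called in either direction, 0.72% as lower and 1.83% as higher. These shares are not at like brightness, as 27 of the 34 members lay above the dim bound, against 8269 of the 16797 genes. Without dim probe sets, 3 of 27 members were called, all lower. Of all genes then tested, 6.1% were called, 1.78% as lower and 4.32% as higher. On the arrays of bulk RNA, fewer cells that express a gene and less of its RNA per cell cannot be told apart. The 3 NF arrays did not overlap with the 3 N arrays in 10 members. Of these, 8 were lower in NF and 2, both dim, were higher. The 8 include the dim Itga10, and Lims2, whose mean of 3.72 lay just above the dim bound. Among all genes 20.2% did not overlap, 9.7% lower and 10.5% higher. By mean, 22 members were lower in NF and 12 were higher. The median change of the members was -0.14, against -0.03 for all genes, and the changes ran from -1.24 to 0.73. At a fold of 2 or more, with no test, 3 members were lower in NF (Tns3, Tgfb1i1 and Itga11) and none higher, while 2.74% of all genes passed this fold in either direction and 0.804% as lower.

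**Figure D1:**
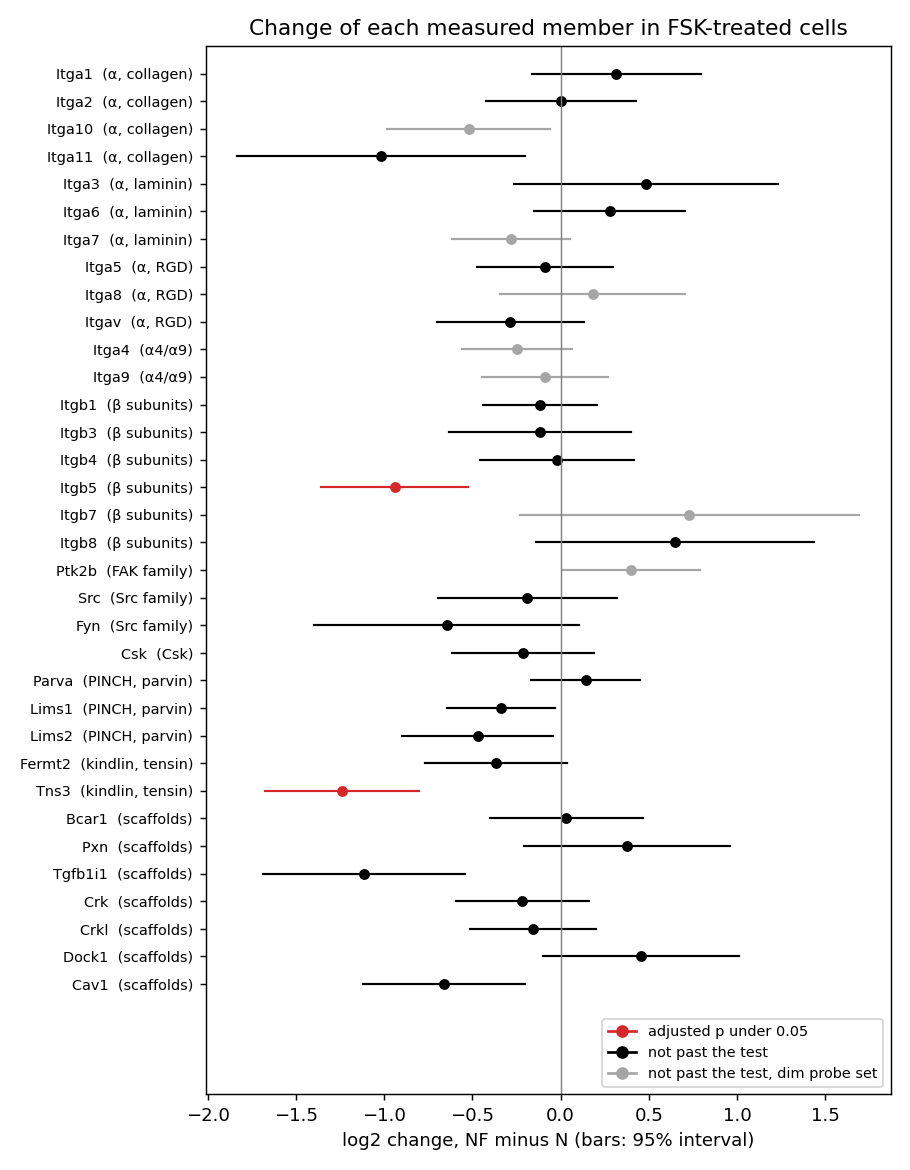
The log2 change (NF minus N, horizontal axis) of each of the 34 measured members with its 95% interval from limma, ordered down the page by role; red marks an adjusted p under 0.05 and grey a dim probe set. Tns3 and Itgb5 are the red points, at -1.24 and -0.94, and the members run from -1.24 to 0.73.

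Among the β subunits, Itgb5 was the called gene. It pairs with αv to form a vitronectin receptor. It had 9.48, 9.41 and 9.37 on the NF arrays, against 9.97, 10.59 and 10.52 on the N arrays. Each NF array lay below each N array, and the NF arrays lay close together while N replicate 1 lay under the other N arrays. Itgb5 averaged 9.42 ± 0.06 in NF and 10.36 ± 0.34 in N (SD, n = 3 each), a change of -0.94 (SE 0.18, limma adjusted p = 0.042), which is 1.92-fold lower in NF. Without N replicate 1 the change was -1.13 (limma adjusted p = 0.00208). Leaving out any other single array raised the adjusted p to between 0.101 and 0.223, so of these fits the call held with all 6 arrays and without N replicate 1.

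The αv chain itself, Itgav, had 8.10, 8.09 and 8.13 in NF, against 8.04, 8.42 and 8.73 in N. The NF values fell between N replicate 1 and the other N arrays, and the change of -0.29 did not pass the test (limma adjusted p = 0.576, 95% interval -0.70 to 0.13). Leaving out N replicate 1 gave -0.46 (limma adjusted p = 0.0916), and leaving out N replicate 3 gave -0.12. Itgb1, the β chain shared by the receptors for collagen, laminin and fibronectin, had 10.03, 9.80 and 10.02 in NF, against 9.98, 9.98 and 10.24 in N. The groups overlapped, with a change of -0.12 (SE 0.14, limma adjusted p = 0.795, 95% interval -0.44 to 0.20), and it ran between -0.16 and -0.03 when single arrays were left out. Itga5, the α chain of the main fibronectin receptor, had 7.97, 8.43 and 8.04 in NF, against 8.04, 8.33 and 8.33 in N. Its change was -0.09 (limma adjusted p = 0.875, 95% interval -0.47 to 0.29), and -0.19 without N replicate 1. With all arrays, a fold of 2 in either direction lay outside the intervals of Itgb1, Itga5 and Itgav.

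Of the other β subunits, Itgb7, a chain of leukocyte integrins, had the highest positive change of all members. Its dim probe set read 3.05, 4.73 and 3.00 in NF, against 2.80, 2.95 and 2.84 in N. NF replicate 2 alone was far above the rest, and the change of 0.73 (SE 0.42) did not pass the test (limma adjusted p = 0.529). Without NF replicate 2 it was 0.16. Itgb3, Itgb4 and Itgb8 changed by -0.12, -0.02 and 0.65 and were not called (limma adjusted p between 0.487 and 0.977). Without N replicate 1, Itgb3 changed by -0.37 and Itgb4, whose sign turned, by 0.19. Itgb8, whose product pairs with αv, is described from its values: it had 7.06, 6.56 and 6.82 in NF, against 5.32, 6.77 and 6.40 in N. N replicate 1 was the lowest array by far, and without it the change was 0.23.

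None of the 12 α subunits was called. Itga11, the α chain of a collagen receptor typical of fibroblasts, had 4.84, 5.25 and 5.33 in NF, against 5.36, 6.20 and 6.92 in N. The groups did not overlap, but N replicate 1 lay just above the highest NF array, and the N arrays spread widely. The change was -1.02 (SE 0.35, limma adjusted p = 0.247), and without N replicate 1 it was -1.42 (limma adjusted p = 0.0105). Without N replicate 3 it was -0.64 (limma adjusted p = 0.343) and without NF replicate 1 it was -0.87 (limma adjusted p = 0.662). Both lie under a fold of 2, so its size depends on the arrays used. The dim Itga10, another collagen-binding chain, had 2.74, 3.00 and 3.12 in NF, against 3.46, 3.13 and 3.84 in N. Its groups did not overlap, though NF replicate 3 and N replicate 2 nearly met, and the change was -0.52. The collagen-binding Itga1 and Itga2 changed by 0.32 and 0.00 with all arrays, and by 0.079 and -0.059 without N replicate 1. Of the laminin-binding subunits, Itga3 changed by 0.48 and Itga6 by 0.28, which became 0.088 and 0.11 without N replicate 1, and the dim Itga7 changed by -0.28. Itga8, an RGD-binding chain like Itga5 and Itgav, and Itga4 and Itga9, which bind fibronectin or other ligands with β1, were dim and changed by 0.18, -0.25 and -0.09 (Itga9 by 0.045 without N replicate 1). With all arrays, the limma adjusted p of these 9 subunits lay between 0.300 and 0.997.

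At the β tails, Tns3 was the member with the largest change. It encodes tensin-3, which binds integrin tails and actin. Tns3 had 6.94, 7.29 and 7.10 in NF, against 8.02, 8.34 and 8.68 in N. All NF arrays lay below all N arrays, and the nearest ones were well apart. Tns3 averaged 7.11 ± 0.17 in NF and 8.35 ± 0.33 in N (SD, n = 3 each), a change of -1.24 (SE 0.19, limma adjusted p = 0.0215, 95% interval -1.67 to -0.80), which is 2.36-fold lower in NF. Without N replicate 1 the change was -1.40 (limma adjusted p = 0.00225). The call was lost when N replicate 2 (limma adjusted p = 0.0542) or N replicate 3 (limma adjusted p = 0.0513) was left out, and likewise with NF replicate 1 (limma adjusted p = 0.133) or NF replicate 3 (limma adjusted p = 0.144). The change stayed between -1.40 and -1.07 throughout these fits. Fermt2 encodes kindlin-2, which binds β tails together with talin. It had a change of -0.37 (limma adjusted p = 0.426), and without N replicate 1 of -0.55 (limma adjusted p = 0.0391).

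**Figure D2:**
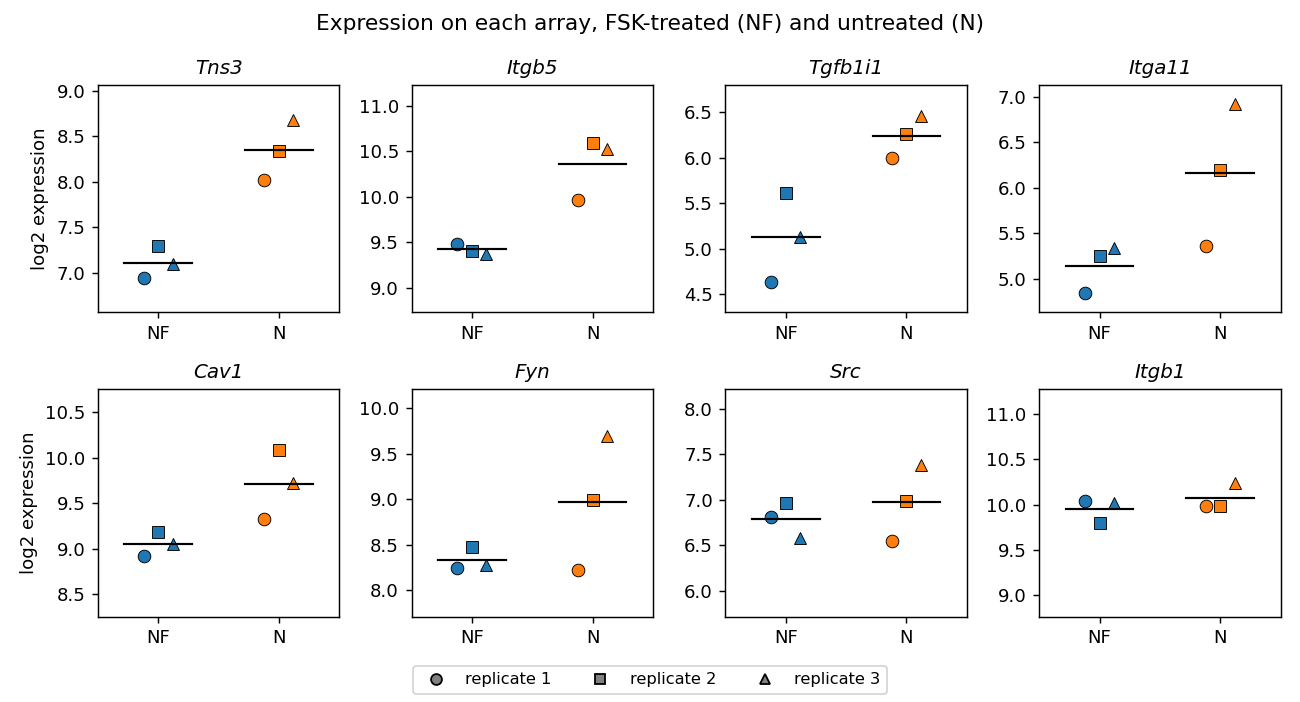
Log2 expression on each array (vertical axis, a span of 2.5 in every panel) in FSK-treated cells (NF, left) and untreated cells (N, right) for 8 members; symbols give the replicate number and lines the group means. In Tns3, Itgb5, Tgfb1i1, Itga11 and Cav1 the NF arrays lie below all N arrays, in Fyn, Src and Itgb1 the groups overlap, and N replicate 1 is the lowest N array in every panel but that of Itgb1, where it lies level with N replicate 2.

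The kinases did not pass the test. Src, the kinase that gives its family the name, had 6.82, 6.96 and 6.58 in NF, against 6.55, 6.99 and 7.39 in N. The NF arrays lay within the range of the N arrays, and the change was -0.19 (SE 0.22, limma adjusted p = 0.788, 95% interval -0.70 to 0.32). Leaving out N replicate 1 gave -0.40, and leaving out N replicate 3 gave 0.017, so the direction rests on N replicate 3. Fyn, a Src family kinase, and Csk, which inhibits the family by phosphorylating its tail, are described from their values. Fyn had 8.24, 8.47 and 8.27 in NF, against 8.22, 8.998 and 9.70 in N. N replicate 1 lay at the level of the NF arrays and the other N arrays lay above it, so that the change of -0.64 (SE 0.33, limma adjusted p = 0.461) became -1.02 without N replicate 1 (limma adjusted p = 0.0223) and -0.28 without N replicate 3 (limma adjusted p = 0.623). Csk changed by -0.21 (limma adjusted p = 0.688), by -0.39 without N replicate 1 (limma adjusted p = 0.124) and by -0.09 without N replicate 3 (limma adjusted p = 0.853). The dim Ptk2b, which encodes the FAK relative Pyk2, had 3.21, 3.71 and 3.27 in NF, against 2.83, 3.12 and 3.04 in N, a change of 0.40 that did not pass the test (limma adjusted p = 0.363).

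Among the scaffolds and adaptors, Tgfb1i1 came closest to the threshold. It encodes Hic-5, a LIM protein of the paxillin family found at focal adhesions. Tgfb1i1 had 4.63, 5.61 and 5.13 in NF, against 5.998, 6.26 and 6.46 in N. The groups did not overlap and the NF arrays were the more widely spread, with 5.13 ± 0.49 in NF and 6.24 ± 0.23 in N (SD, n = 3 each). The change was -1.11 (SE 0.25, limma adjusted p = 0.0659), and without N replicate 1 it was -1.23 (limma adjusted p = 0.0243). Cav1, the coat protein of caveolae, had 8.92, 9.18 and 9.05 in NF, against 9.32, 10.09 and 9.72 in N. Here too the groups did not overlap, with N replicate 1 the nearest to NF, and the change was -0.66 (SE 0.20, limma adjusted p = 0.171) with all arrays and -0.85 without N replicate 1 (limma adjusted p = 0.0159). Pxn, the gene of paxillin, changed by 0.38, Bcar1, the gene of p130Cas, by 0.03, and the adaptor genes Crk and Crkl by -0.22 and -0.16. Dock1, which encodes an exchange factor for Rac that acts with Crk, changed by 0.46. None of these 5 was called (limma adjusted p between 0.487 and 0.962). Without N replicate 1, Pxn changed by 0.079, Bcar1, whose sign turned, by -0.11, Dock1 by 0.17 and Crkl by -0.26.

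The proteins PINCH and parvin form a complex with the integrin-linked kinase. In both PINCH genes all NF arrays lay below all N arrays, and neither was called. Lims1 had 7.23, 7.26 and 7.27 in NF, against 7.45, 7.54 and 7.78 in N, a change of -0.34 (limma adjusted p = 0.321). Lims2 had 3.56, 3.39 and 3.50 in NF, against 3.896, 4.33 and 3.63 in N, a change of -0.47 (limma adjusted p = 0.318). Parva, whose groups overlapped, changed by 0.14 (limma adjusted p = 0.733), and by 0.047 without N replicate 1. The values of Itga10, Ptk2b, Lims1 and Lims2 are given here because their groups did not overlap.

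Without N replicate 1, 7 of the 34 members were called lower in NF and 0 higher. These were Tns3, Itgb5, Tgfb1i1, Itga11, Cav1, Fyn and Fermt2, while 5.49% of all genes were called, 2.56% lower and 2.93% higher. The median change of the members was then -0.23, against -0.02 for all genes. Leaving out NF replicate 2 gave 2 called members (Tgfb1i1 and Tns3, both lower), with 1.43% of all genes called, 0.536% as lower. Leaving out any of the other 4 arrays gave 0 called members, with 2.08% of all genes called without N replicate 2, 0.828% without N replicate 3, and 0.00595% and 0.0119% when NF replicate 1 or NF replicate 3 was left out. The part of N replicate 1 in the number of calls was measured only by leaving it out, and what sets this array apart was not tested.

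With all arrays and an unadjusted p under 0.05, 8 members were lower (5.49% of all genes) and 1 was higher (8.33% of all genes, and 13.8% in either direction). After a further quantile normalization 4 members were called, all lower: Tns3, Itgb5, Itga11 and Tgfb1i1. Of all genes 5.12% were then called, 2.17% as lower. Tgfb1i1 was also called lower, with Tns3 and Itgb5, when each array was centred on its median (3.09% of all genes called, 1.08% as lower). The same 3 were called lower when dim probe sets were left out (6.1% of the genes then tested, 1.78% as lower). Tns3 and Itgb5 were the called members, both lower, with the brightest probe set for each gene (2.5% of all genes called, 0.708% as lower). They were so too with limma's trend and robust options (2.68%, 0.762% as lower). The methods' t-test, which the study names for its data in general while its arrays were tested with limma, gave 5 lower members unadjusted, these 2 with Tgfb1i1, Cav1 and Lims1, while 11.1% of all genes passed it, and after Benjamini-Hochberg adjustment it gave 0 members and 0.00595% of all genes.

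**Figure D3:**
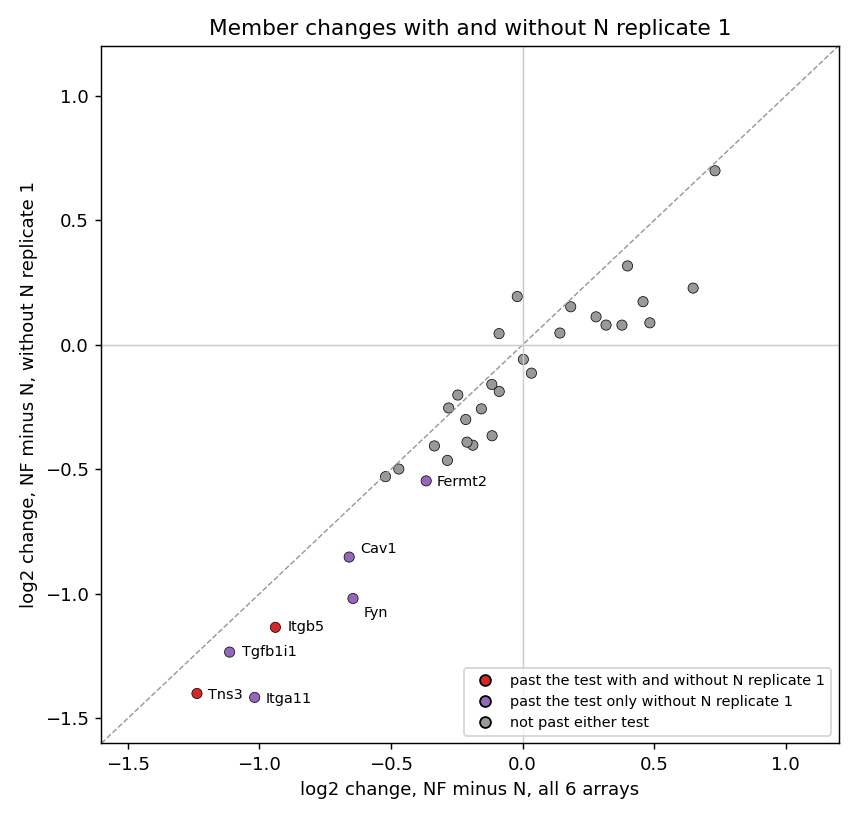
The log2 change (NF minus N) of the 34 measured members with all 6 arrays (horizontal axis) and without N replicate 1 (vertical axis); the dashed line marks equal values, and the axes share the N arrays 2 and 3 and all NF arrays. The 7 members called without N replicate 1 are labelled, and they lie at -0.55 or lower on the vertical axis.

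The promoters of both called genes are shown because they moved in the same direction. Beside them stand those of 2 members that were not called, Itgb1 and Crkl, whose windows held matches to the letters searched. For 29 of the 40 members, RefSeq (GRCm38.p6) gave 37 windows of 250 bases before a start. The letters searched, on both strands, were TGACG, the core of the cAMP response element bound by CREB, its full form TGACGTCA, which holds TGACG on both strands, CATTCC, the motif of TEAD factors, and the CArG box of SRF. Capitals mark matches. The window of Tns3 is chr11:8664536-8664785 on the minus strand, that of Itgb5 chr16:33829415-33829664 on the plus strand, that of Itgb1 chr8:128685404-128685653 on the plus strand, and that of Crkl chr16:17451735-17451984 on the plus strand.
Tns3: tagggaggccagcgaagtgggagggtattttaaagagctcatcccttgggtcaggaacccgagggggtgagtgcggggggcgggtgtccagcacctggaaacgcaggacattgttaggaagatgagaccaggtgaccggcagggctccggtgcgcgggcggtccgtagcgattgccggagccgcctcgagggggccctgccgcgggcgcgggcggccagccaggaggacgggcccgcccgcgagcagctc
Itgb5: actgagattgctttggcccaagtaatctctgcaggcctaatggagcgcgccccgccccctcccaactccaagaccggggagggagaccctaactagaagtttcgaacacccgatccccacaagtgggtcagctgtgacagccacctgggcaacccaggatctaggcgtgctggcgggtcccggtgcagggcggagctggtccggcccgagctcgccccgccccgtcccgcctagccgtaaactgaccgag
Itgb1: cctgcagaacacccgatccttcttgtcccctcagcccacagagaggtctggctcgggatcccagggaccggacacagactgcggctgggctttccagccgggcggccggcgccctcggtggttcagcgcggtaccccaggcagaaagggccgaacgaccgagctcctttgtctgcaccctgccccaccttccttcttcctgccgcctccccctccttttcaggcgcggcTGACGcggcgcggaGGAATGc
Crkl: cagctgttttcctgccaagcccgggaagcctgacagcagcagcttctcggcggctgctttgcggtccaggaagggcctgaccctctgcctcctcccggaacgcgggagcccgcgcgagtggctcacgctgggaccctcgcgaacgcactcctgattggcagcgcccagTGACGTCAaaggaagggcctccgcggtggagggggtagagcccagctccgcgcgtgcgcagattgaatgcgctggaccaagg
TGACG was found in 5 of the 37 windows, those of Crkl, Ilk, Itga9, Itgb1 and Itgb6, against 17.8% of all 32851 windows. The full element TGACGTCA stood in the window of Crkl alone, against 1.55% of all windows. CATTCC stood in 2 (Itga10 and Itgb1), against 12.6%, and the CArG box in 2 (Fermt2 and Itgb6), against 1.47%. The windows of Tns3 and Itgb5 held none of the motifs, which says only that these letters are not in these bases. Windows of members that were not called, such as Src, Itga5 and Itgav, held none either. The windows shown are therefore not a comparison of called with uncalled members. A match is a description of the letters and was not measured as a binding site.

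Of 73 other adhesion genes (talins, vinculin, actinins, filamins, other tensins and integrin partners), 60 were measured and 0 were called by limma. At an unadjusted limma p under 0.05, 6 were higher and 4 lower, while 8.33% of all genes were higher and 5.49% lower. By the methods' t-test, unadjusted, 5 were higher and 5 lower, while 5.95% of all genes were higher and 5.13% lower. The median change of the other adhesion genes was 0.01, against -0.03 for all genes. It was 0.21 without dim probe sets, against 0.09 for all genes, and 0.13 without N replicate 3, against 0.0045. Without N replicate 1 it was 0.0020, against -0.021 for all genes, and with median centring it was -0.031, against -0.067. Against 20.2% of all genes (10.5% higher and 9.7% lower), the groups did not overlap in 26.7% of the 60, or 16 genes (11 higher and 5 lower in NF). The lowest p belonged to Flnc, the gene of the actin crosslinker filamin C, with 7.47, 8.23 and 7.76 in NF, against 8.81, 9.02 and 9.91 in N. Its groups did not overlap, and the change of -1.43 missed the threshold (limma adjusted p = 0.0584). Tns4, a further tensin gene, changed by 0.77 and Sorbs2 by -0.70, both with dim probe sets, and Kank1, whose product binds talin, changed by 0.80 (limma adjusted p between 0.0954 and 0.126). Without N replicate 1, Flnc, Ptpn12, Sorbs2, Asap1 and Vcl, the gene of vinculin, were called lower and 0 higher. In that fit 2.56% of all genes were called lower and 2.93% higher. Of 11 adhesion genes known from blood cells within this list, 10 were dim and 0 were called.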

How the data were processed

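The authors deposited log2 expression values of 6 Affymetrix gene arrays, made with RMA (background correction, normalization between arrays and summary of probes) with oligo, an R/Bioconductor package whose version the methods leave out. Their annotation came from ENSEMBL, and its release and genome build, like the arrays normalized together, are not given in the sources used here. They had removed probe sets that lacked an Entrez gene. Of 22035 probe sets, 18197 were paired with 1 gene in the platform annotation and tested, 1260 had several genes and 2578 were not listed. No column was left without a sample. The comparison of NF with N used limma 3.58.1 under R 4.3.3 (lmFit and eBayes, two-sided, 16797 genes, prior degrees of freedom 4.00, a gene given by its probe set of lowest p). The procedure was tested on simulated data with independent normal noise. Such data hold no array set apart like N replicate 1, so the test did not cover that case. Its outcome is not given here and is no support for the calls. The number of arrays limits the precision.

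The members, the other adhesion genes, the markers and the motifs were chosen with earlier results of these data known. Values per array are given for called members, for the 6 with the largest absolute change and, for their role, Src, Itgb1, Itga5 and Itgav (Ptk2 was not measured). Those of Itgb8, Fyn, Itga10, Ptk2b, Lims1 and Lims2, and the choice of Itgb1 and Crkl for their promoters, followed after their values were seen. Of the other adhesion genes, the 4 of lowest p and those called without N replicate 1 are named. As alternatives, the fit was repeated with a block for the replicate number, after quantile normalization or median centring, without dim probe sets, with each gene's brightest probe set, with the options trend and robust, with Student's t-test (named in the study's general statistics; the authors tested the arrays with limma), and with each array left out. The deviations of N and NF arrays with the same number correlated at -0.0748, -0.0780 and -0.0736, and the labels tie no numbers together. The arrays were therefore not treated as paired in the main fit. With so few arrays in a group, these correlations cannot exclude that arrays with the same number were handled together. The study's other samples were not used here.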

Additional observations from a re-analysis of the deposited data

How the results depend on the processing

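The count of members called, 2 with all arrays, was 4 after quantile normalization, 5 by the methods' t-test unadjusted and 0 after its Benjamini-Hochberg adjustment, and 0 to 7 when 1 array was left out. It was 2 or 3 under median centring, without dim probe sets, with the brightest probe set and with the trend and robust options. Of the other adhesion genes, 0 with all arrays, 2 were called after quantile normalization, 1 with median centring, 1 without dim probe sets, 1 with trend and robust options, 10 by the methods' t-test unadjusted, and 0 to 5 when 1 array was left out. The genes called in all numbered 428, with 860 after quantile normalization, 922 without N replicate 1 and 1 to 349 without another array.

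With the replicate number as a block, 0 members and 0 other adhesion genes were called, and 80 genes in all. The labels do not say whether arrays with the same number were handled together. The check given with the methods cannot exclude it, as each group holds so few arrays. Tns3 had an adjusted p of 0.0563 with the block and Itgb5 of 0.0995.

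The median change of the members stayed between -0.23 and -0.06, that of the other adhesion genes between -0.03 and 0.21, and that of all genes between -0.07 and 0.09. Of 195 values of 14 named members under the alternatives, 169 kept their direction and their side of the threshold, 13 lost a call and 11 gained one. The 13 losses all fell on Tns3 and Itgb5, as no other named member had a call to lose. Most of the 169 are values of members that were not called with all arrays, so this count does not measure how stable the calls were. Without single arrays Src ran between -0.40 and 0.017, the reversed value being the one without N replicate 3, and Itga5 between -0.23 and 4.95e-05, the reversed value being the one without NF replicate 1. The cause was not tested. With 3 arrays a group, the median SE of a member's change was 0.187, and changes of dim probe sets lie near the background of the arrays.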
